A study of Mus musculus with 2 samples.

Results

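The mitosis and spindle genes are 51 genes whose products condense chromosomes, attach them to the spindle, pull them apart and divide the cell. They were taken as a fixed list of gene symbols, matched through the GENCODE mouse M21 annotation to the Ensembl identifiers of the counted genes, and all 51 were found among the 24223 genes counted. By structure they form 10 classes, namely 8 kinetochore genes, 5 spindle checkpoint genes, 6 genes of the chromosomal passenger complex and mitotic kinases, 9 spindle motors, 3 spindle assembly factors, 4 cytokinesis genes, 5 genes of mitotic entry and exit, 3 genes of cohesion and separase, 7 genes of chromosome structure, and Anp32e, which encodes a histone chaperone.

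RNA was sequenced from CT26, an established colon carcinoma line of BALB/c mouse origin, with 1 library from treated cells (DAC) and 1 from control cells (Ctrl). DAC is decitabine, a cytosine analog that is built into DNA during replication and traps the enzymes that methylate it. The treated cells received 1 μM DAC in 3 doses at 24 h intervals and then spent 24 h in medium lacking the drug, and the control cells were handled in parallel with no DAC. With 1 library per group no difference has a replicate check, and no p-value is given.

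In each division the kinetochore is built on the centromere and holds the ends of spindle microtubules, while the spindle checkpoint delays anaphase until every chromosome is attached. The chromosomal passenger complex corrects faulty attachments and later moves to the midzone, kinesin motors shape the spindle, and the anaphase-promoting complex ends mitosis by marking securin and cyclin B for destruction. Most of these genes are transcribed mainly in G2 and M phase.

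Deposited totals were 35163420 counts for DAC and 34221886 for Ctrl. Scaling with TMM factors from edgeR gave CPM, that is counts per 1000000 of a library's scaled total, and 1 CPM equals 37.6 counts for DAC and 32.0 for Ctrl. Differences are given as the ratio of DAC CPM to control CPM, followed in parentheses by its exact (Clopper-Pearson) 95% interval, which covers counting error only. The members had between 353 and 19494 counts, and all 51 passed the minimum of 1 CPM in either library. In bulk RNA, a smaller share of cells in mitosis and less RNA per cell cannot be told apart. Of the colon epithelial markers measured, Cdh1 and Vil1 had 0 counts in Ctrl and 9 and 12 in DAC, Krt8 had 5 and 4445, and the summed CPM of the 7 epithelial markers was 75.3 in Ctrl and 257 in DAC. The mesenchymal markers Vim, Col1a1, Col1a2 and Pdgfrb summed to 2921 CPM in Ctrl and 2421 in DAC. These markers went different ways, with ratios of 0.589 for Col1a2, 0.974 for Col1a1, 1.15 for Vim and 1.21 for Pdgfrb. The leukocyte markers Ptprc and Cd79a summed to 0.687 and 2.98 CPM and the endothelial markers Cdh5 and Pecam1 together to 8 and 12 counts, with Ptprc and Cdh5 at 0 counts in DAC. The part of these marker changes in the results was not tested.

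Most mitosis and spindle genes had a somewhat lower CPM in the DAC library, few differed by 2-fold, and the genes that differed most lay in different structures. A gene was called by the 2-fold rule when its ratio was at least 2 or at most 0.5 and its interval lay on the same side of 1. By this rule 2 of the 51 members (3.92%) were higher, Cdca3 and Cdca5, beside 10.8% of all 13545 genes past the CPM minimum, and 2 (3.92%) were lower, Anp32e and Spc25, beside 5.29% of all genes. With a fold of 1.5 in place of 2, the same 2 members were higher (3.92%, against 19.3% of all genes), and 12 were lower (23.5%, against 15.2%). The counting interval lay wholly above 1 for 11 members (21.6%, against 37.3% of all genes) and wholly below 1 for 34 (66.7%, against 40.3%). The median log2 ratio was -0.24 for the members and -0.02 for all genes, and the ratio was below 1 in 72.5% of members and 51.3% of all genes. Among the 10795 genes that reached 5 CPM in either library, as every member did, the 2-fold rule called 4.17% lower and 6.34% higher. For these genes the 1.5-fold rule called 14.9% lower and 14.5% higher. Their interval lay wholly below 1 in 45.7% and wholly above 1 in 36.5%, and their median log2 ratio was -0.06.

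**Figure D1:**
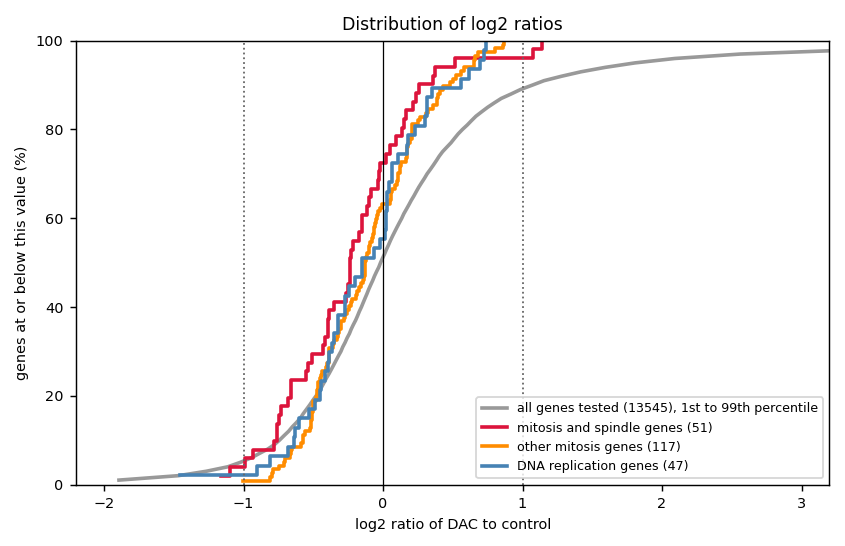
Cumulative share of genes (y axis, percent) at or below each log2 ratio of DAC to control (horizontal axis), for the 51 mitosis and spindle genes (red), 117 other mitosis genes (orange), 47 DNA replication genes (blue) and all 13545 genes tested (grey, from the 1st to the 99th percentile). Dotted lines mark 2-fold, and the red curve crosses the ratio of 1 at 72.5% while the grey curve crosses it at 51.3%.

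The scale of the libraries and base composition both bear on these counts. When counts were divided by library totals alone, the median of all genes became 0.18 and that of the members -0.05. Library factors move every log2 ratio by the same amount, so the gap of 0.22 between these medians could not change. By library totals 28 rather than 37 members had a ratio below 1. Of the members 5 were lower by the 1.5-fold rule (8.8% of all genes) and none by the 2-fold rule (3.37%). The interval lay above 1 for 20 of the 51 members, against 51.1% of all genes, and below 1 for 23, against 27.9%. After the log2 ratios were centred on 20 bins of transcript GC content, the members' median was -0.12, 31 had a ratio below 1, 5 were lower by the 1.5-fold rule (12.9% of all genes) and none by the 2-fold rule (4.41%). Anp32e, Spc25, Ndc80 and Prc1 were lower by the 1.5-fold rule on the main scale and under each of 10 alternatives. Cdca3 was higher by the 2-fold rule in all of them, and Cdca5 in 9 of the 10. Other CPM minimums and intervals from counts divided by 3 leave the ratios as they are, so at these counts they could not end such calls.

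Anp32e, on chromosome 3 (chr3:95929246-95947390, GRCm38, plus strand), encodes a chaperone that removes the histone variant H2A.Z from nucleosomes. It had 8494 counts (265 CPM) in Ctrl and 4448 counts (118 CPM) in DAC. The ratio was 0.446 (0.430 to 0.463), the lowest of the 51, and corresponds to 2.24-fold lower (2.16 to 2.32). It was 0.510 by library totals and 0.511 after GC centring, just short of 2-fold.

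Spc25, a subunit of the Ndc80 complex that binds microtubules at the kinetochore, lies on chromosome 2 (chr2:69193895-69206194, minus strand). Its counts were 2851 (89.0 CPM) in Ctrl and 1564 (41.6 CPM) in DAC, a ratio of 0.468 (0.439 to 0.497). It was not called by library totals (0.534) or after GC centring (0.567).

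Cdca3 and Cdca5 stood at the other end. Cdca3 (chr6:124829547-124833701, plus strand), also called Tome-1, is a substrate of the anaphase-promoting complex that takes part in removing the mitotic inhibitor Wee1. It had 653 counts (20.4 CPM) in Ctrl and 1690 counts (44.97 CPM) in DAC, a ratio of 2.21 (2.01 to 2.42). Cdca5 (chr19:6084983-6091777, plus strand) encodes sororin, which protects cohesin on replicated chromosomes until anaphase. It had 353 counts (11.02 CPM) in Ctrl, the fewest of any member, and 871 (23.2 CPM) in DAC, a ratio of 2.10 (1.86 to 2.39). Of the other 47 members, Cdc20 came nearest to them at 1.43.

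The start regions of these 4 genes are shown because a short element, the cell cycle genes homology region (CHR), is known to recruit the DREAM and MuvB complexes to genes of G2 and M phase, often beside CCAAT boxes bound by NF-Y. Each sequence runs from 250 bases before to 50 bases after the transcription start in RefSeq (GRCm38.p6), 5′ to 3′ on the strand of the gene. Capitals mark matches to the CHR core TTTGAA and to CCAAT on either strand, so a match on the other strand reads TTCAAA or ATTGG. The Anp32e window is chr3:95929007-95929306 (plus strand), that of Spc25 chr2:69206164-69206463 (minus), that of Cdca5 chr19:6084847-6085146 (plus) and that of Cdca3 chr6:124829926-124830225 (plus), the last lying after the first start that GENCODE gives for the gene.
Anp32e: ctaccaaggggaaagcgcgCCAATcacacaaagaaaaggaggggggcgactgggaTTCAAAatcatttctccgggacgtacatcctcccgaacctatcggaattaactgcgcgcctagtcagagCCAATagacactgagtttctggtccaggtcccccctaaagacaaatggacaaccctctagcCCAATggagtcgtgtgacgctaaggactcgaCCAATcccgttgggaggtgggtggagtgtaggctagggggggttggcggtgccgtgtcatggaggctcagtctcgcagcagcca
Spc25: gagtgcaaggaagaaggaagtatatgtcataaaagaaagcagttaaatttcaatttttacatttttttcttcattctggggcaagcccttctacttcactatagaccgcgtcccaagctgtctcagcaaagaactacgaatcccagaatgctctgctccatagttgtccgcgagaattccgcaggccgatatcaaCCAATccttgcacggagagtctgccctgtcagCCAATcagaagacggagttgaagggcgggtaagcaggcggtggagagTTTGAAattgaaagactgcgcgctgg
Cdca5: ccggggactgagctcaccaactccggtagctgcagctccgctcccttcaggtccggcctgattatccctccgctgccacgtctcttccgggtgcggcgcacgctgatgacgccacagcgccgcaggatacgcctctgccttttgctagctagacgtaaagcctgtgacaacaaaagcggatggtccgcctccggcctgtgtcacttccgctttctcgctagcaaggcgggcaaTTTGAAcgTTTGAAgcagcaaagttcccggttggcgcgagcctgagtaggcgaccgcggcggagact
Cdca3: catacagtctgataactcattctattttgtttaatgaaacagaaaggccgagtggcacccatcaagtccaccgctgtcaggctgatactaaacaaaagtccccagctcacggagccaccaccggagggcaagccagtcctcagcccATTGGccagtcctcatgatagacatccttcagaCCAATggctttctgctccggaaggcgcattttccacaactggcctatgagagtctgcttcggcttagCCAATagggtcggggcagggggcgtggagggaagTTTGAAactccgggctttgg

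Positions carry no 0, being negative before the transcription start and positive from the start base on. The CHR core began at -195 in Anp32e, at 25 in Spc25, at -17 and -9 in Cdca5 and at 31 in Cdca3. Cdca5 held no CCAAT match in its window, while Anp32e held 4. A CHR match was part of how printed genes were chosen, so its presence here is no result.

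The RefSeq table held promoters for 44 of the 51 members, and not for Tpx2, Smc4, Spc24, Cdc25c, Incenp, Kif20a and Aurkb. A CHR core on either strand was present in 34 of these 44 genes (77.3%), in 20.2% of 27025 genes with a promoter in the table, and in 14.4% of the 9515 that passed the CPM minimum. It was present in 27 of 96 other mitosis genes (28.1%) and in 5 of 38 DNA replication genes (13.2%). CCAAT matched in 30 members (68.2%), in 41.1% of all genes, in 56.2% of other mitosis genes and in 65.8% of replication genes. Both motifs were present in 27 members (61.4%) and in 7.97% of all genes, and in 1 member, Cdca8, the matches overlapped. CHR matches lay close to the start, at 19.1, 25.5 and 21.3 matches per 100 windows in the 3 bins of 25 bases from -25 to 50, where all promoters held 1.39, 1.34 and 1.10. Members with and without a CHR core both spanned ratios on either side of 1. The median log2 ratio was -0.24 in the 34 members with the core, of which 8 were lower and 2 higher by the 1.5-fold rule, and -0.16 in the 10 without it, of which 2 were lower and none higher (Nuf2, Cenpe, Nusap1, Kif18a, Cdc25b, Pttg1, Mad2l1, Ncaph, Bub1 and Birc5 lacked it). A match is a run of letters and not a shown binding site, and a window without a match says nothing of binding elsewhere.

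**Figure D2:**
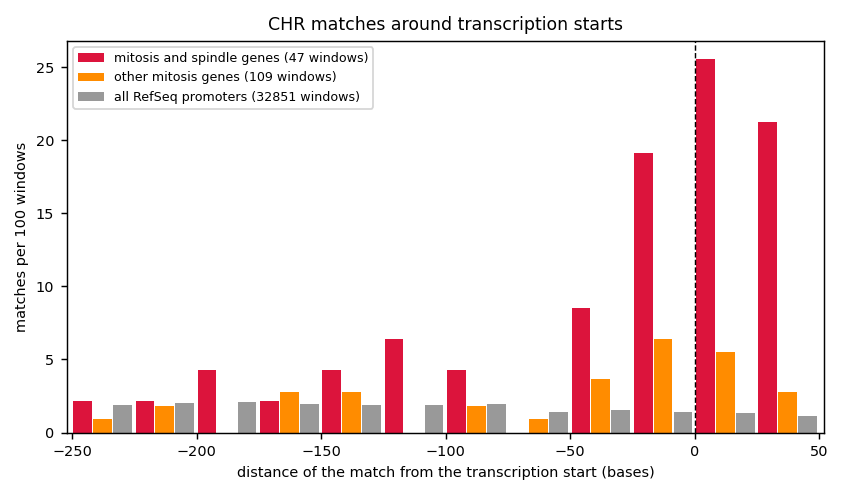
Matches to the CHR core per 100 promoter windows (y axis) in bins of 25 bases by distance from the transcription start (x axis, bases; dashed line, start), on either strand, for 47 windows of the mitosis and spindle genes (red), 109 of other mitosis genes (orange) and all 32851 RefSeq windows (grey). The red bars are highest from -25 to 50, at 19.1 to 25.5 matches per 100 windows, where the grey bars stay at 1.10 to 1.39.

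**Figure D3:**
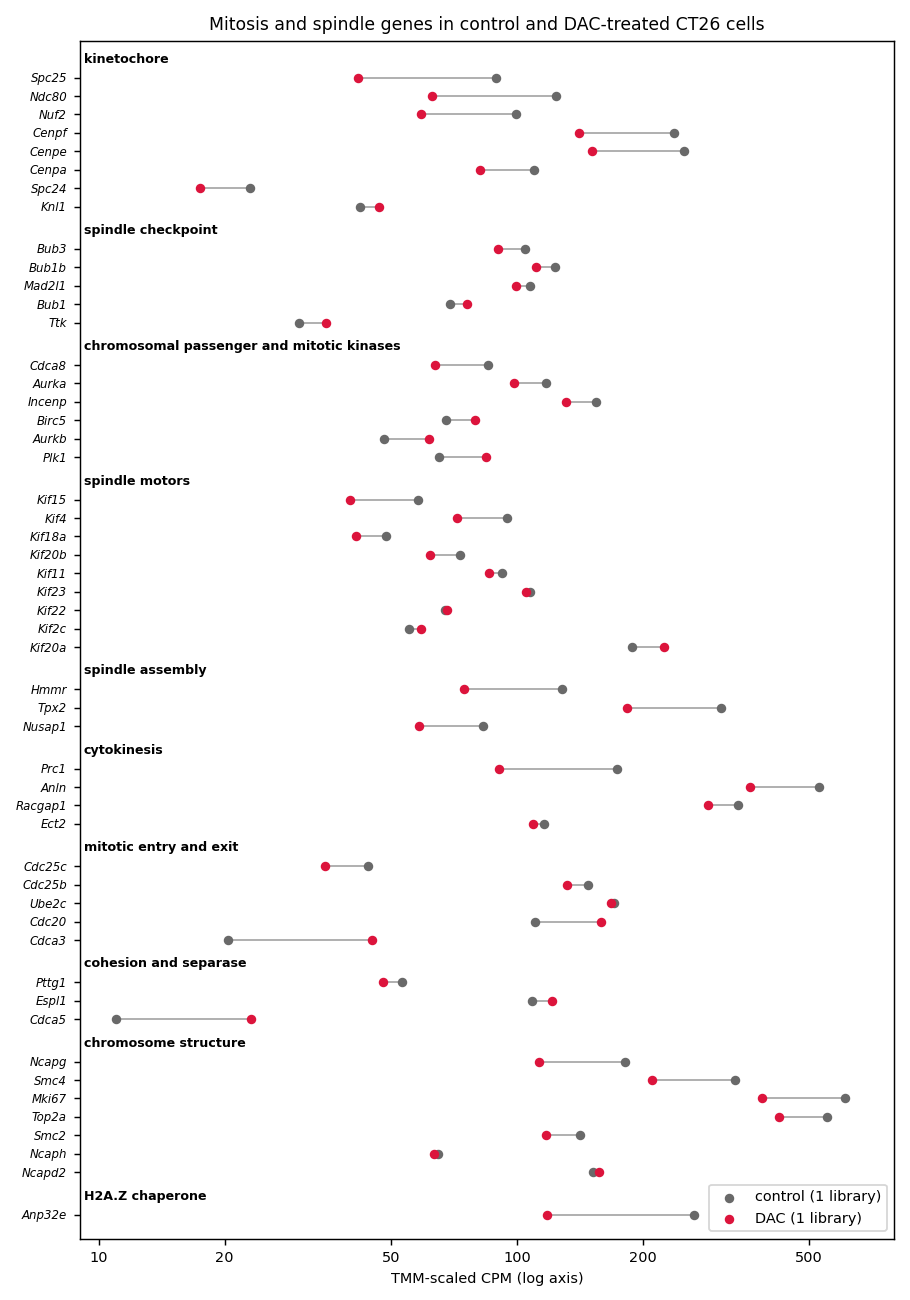
CPM of each of the 51 mitosis and spindle genes (x axis, log scale) in the control library (dark grey) and the DAC library (red), grouped by structure, with 1 library per group and thus no error bar for cultures. The DAC point lies to the left for 37 genes, and Cdca3 and Cdca5 show the widest gaps in the other direction.

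Of the 8 kinetochore genes, 7 had a lower CPM in the DAC library and 5 were lower by the 1.5-fold rule, with a median log2 ratio of -0.75 (-0.49 after GC centring and -0.56 by library totals, with 2 of the 8 lower by the 1.5-fold rule on either scale). By that rule 15.2% of all genes were lower, and 26.3% of all genes below 45% GC, where 6 of the 8 lie. Spc25 was the lowest, as given above. The other subunits of the Ndc80 complex followed. Ndc80 itself, which grips the microtubule, had 3972 counts (124 CPM) in Ctrl and 2349 (62.5 CPM) in DAC, a ratio of 0.504 (0.479 to 0.530), just outside the 2-fold limit. Nuf2, the partner of Ndc80 in the microtubule-binding head, went from 99.7 to 58.8 CPM, a ratio of 0.590 (0.559 to 0.623). Spc24, the partner of Spc25 at the inner end, had few counts, 735 and 657, and a ratio of 0.762 (0.685 to 0.847). Within this complex the highest ratio was 1.63 times the lowest.

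Cenpe, a kinesin that carries chromosomes along microtubules toward the spindle equator, had the most CPM per kilobase of merged exons in the class, 29.1 in Ctrl and 17.5 in DAC, and 8047 and 5676 counts and a ratio of 0.601 (0.581 to 0.622). By the length of the longest transcript, Spc25 rather than Cenpe came first. Cenpf, a large protein of the outer kinetochore, had 7629 and 5285 counts and a ratio of 0.590 (0.570 to 0.612). Cenpa, the histone H3 variant that marks centromeres, had 3526 and 3063 counts and a ratio of 0.740 (0.705 to 0.777). Knl1, the scaffold on which the checkpoint proteins Bub1 and Bub3 dock, was the exception in the class, with 1347 counts (42.1 CPM) in Ctrl and 1757 (46.8 CPM) in DAC, a ratio of 1.11 (1.03 to 1.19).

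**Figure D4:**
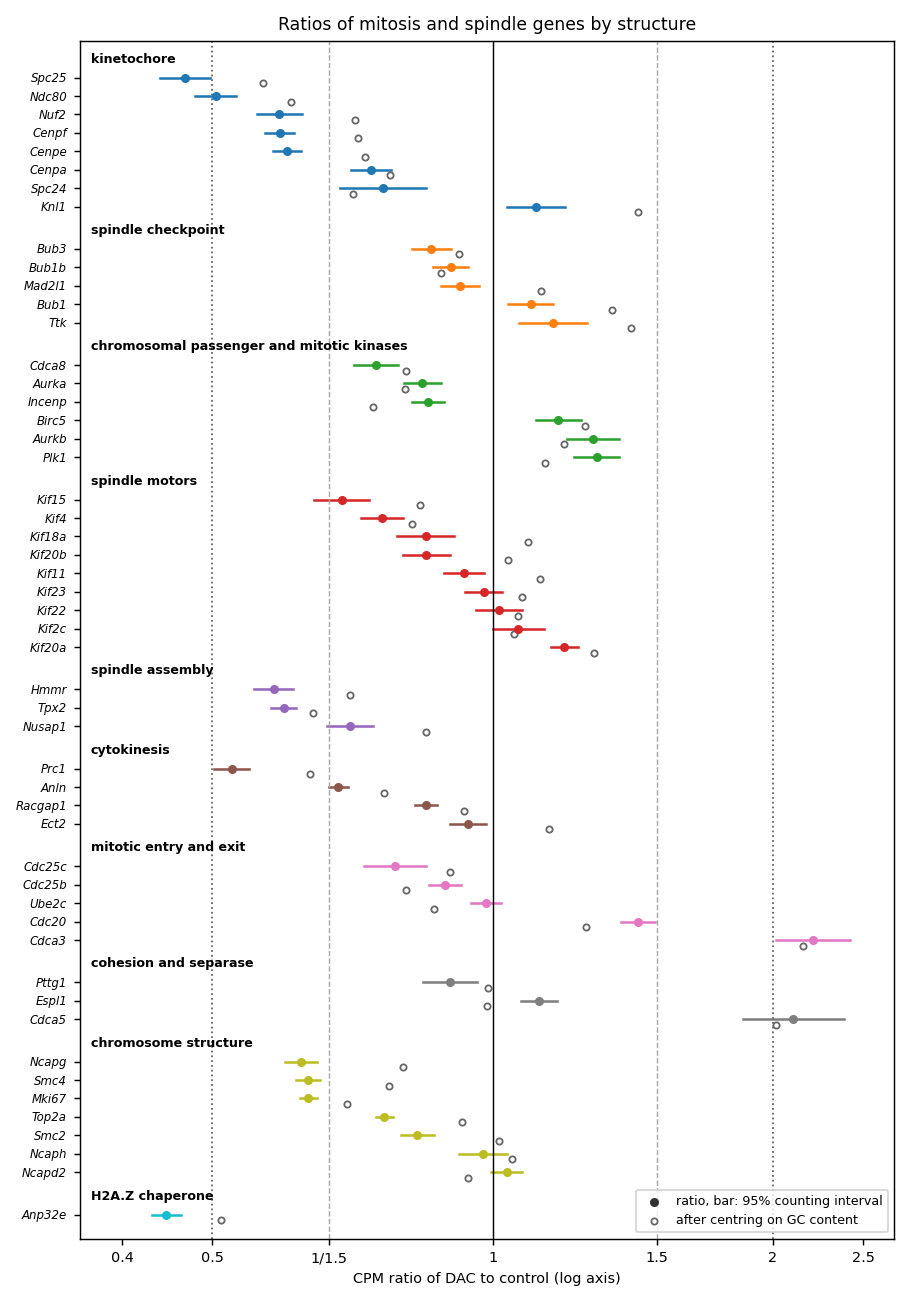
Ratio of DAC to control CPM (x axis, log scale) for each of the 51 mitosis and spindle genes by structure, with filled points and bars for the ratio and its 95% counting interval and open points for the ratio after centring on 20 bins of GC content. Dotted lines mark 2-fold and dashed lines 1.5-fold, 12 filled points lie to the left of the dashed line at 1/1.5, and 2 lie to the right of 1.5.

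The 5 spindle checkpoint genes stayed between 0.859 and 1.16, and none was called by the 1.5-fold rule. Their median log2 ratio was -0.12, but it was 0.07 by library totals and 0.17 after GC centring, so no direction held across scales. Bub3, the adaptor that binds phosphorylated Knl1, was lowest, with 3357 counts in Ctrl and 3385 in DAC, a ratio of 0.859 (0.819 to 0.902). Bub1b, which encodes the BubR1 subunit of the mitotic checkpoint complex, had the most CPM per kilobase, 28.8 and 25.9, and a ratio of 0.901 (0.862 to 0.941). Mad2l1 encodes Mad2, the protein that captures Cdc20, and had 3450 and 3731 counts and a ratio of 0.922 (0.8797 to 0.966). By library totals Bub1b (1.03) and Mad2l1 (1.05) lay above 1, and Mad2l1 did so after GC centring as well (1.13). The kinases Bub1 and Ttk (Mps1), which start checkpoint signalling, lay above 1. Ttk was highest with 964 and 1312 counts and a ratio of 1.16 (1.07 to 1.26), and Bub1 had 1.10 (1.04 to 1.16).

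Among the 6 genes of the chromosomal passenger complex and mitotic kinases, 3 lay below 1 and 3 above, and none was called by the 1.5-fold rule. Their median log2 ratio was 0.00 and changed sign with the scale, from 0.19 by library totals to -0.06 after GC centring. Cdca8 (borealin), which helps to bring the complex to centromeres, was lowest with 2725 counts (85.1 CPM) in Ctrl and 2396 (63.8 CPM) in DAC, a ratio of 0.749 (0.709 to 0.792). Incenp, the scaffold that activates Aurora B, had 4942 and 4936 counts and a ratio of 0.851 (0.818 to 0.886). Birc5 (survivin) had 2166 and 2989 counts and a ratio of 1.18 (1.11 to 1.24), and Aurkb, the kinase of the complex, 1543 and 2321 counts and 1.28 (1.20 to 1.37). The highest of the 4 subunit ratios was 1.71 times the lowest, and the intervals of Cdca8 and Aurkb did not overlap.

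Plk1, the Polo-like kinase that acts from entry into mitosis to cytokinesis, had the highest ratio of that class, with 2086 counts (65.1 CPM) in Ctrl and 3167 (84.3 CPM) in DAC, 1.29 (1.22 to 1.37). Of the 50-base stretches of its longest transcript 10.9% occur in other genes, mainly the pseudogene Plk-ps1, so its count is uncertain. Aurka, the Aurora kinase of spindle poles, had the most CPM per kilobase, 46.4 and 39.0, and a ratio of 0.840 (0.803 to 0.879).

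None of the 9 spindle motors was called by the 1.5-fold rule, and the class had a median log2 ratio of -0.10, but 0.09 by library totals and 0.09 after GC centring. Kif15, which backs up Kif11 in keeping the poles apart, was lowest with 1860 counts (58.1 CPM) in Ctrl and 1502 (40.0 CPM) in DAC, a ratio of 0.688 (0.643 to 0.737). Kif11 (Eg5), the main motor that separates the poles, had 2949 and 3223 counts and a ratio of 0.931 (0.886 to 0.979). Kif4, a chromosome-bound motor, had a ratio of 0.761 (0.722 to 0.802), and 16.2% of its 50-base stretches are shared, mainly with the overlapping gene Pdzd11. Kif18a, which dampens chromosome oscillation, and Kif20b had 0.847 and 0.848, Kif22 had 1.02, and Kif2c, a microtubule depolymerase at centromeres, had 1.06. The intervals of Kif22 (0.959 to 1.08), Kif23 (0.934 to 1.02) and Kif2c (0.9997 to 1.13) held 1. After GC centring Kif18a (1.09), Kif20b (1.04), Kif11 (1.12) and Kif23 (1.08) lay above 1, as Kif11 (1.06) and Kif23 (1.12) did by library totals. Kif20a, a motor of the central spindle, was highest by ratio and by level, with 6027 counts (188 CPM) in Ctrl and 8444 (225 CPM) in DAC, a ratio of 1.19 (1.16 to 1.23), but 31.2% of its 50-base stretches are shared, mainly with Cdc23 on the opposite strand.

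All 3 spindle assembly factors were lower in the DAC library, with a median log2 ratio of -0.75 (-0.51 after GC centring and -0.55 by library totals), and 2 were called by the 1.5-fold rule. By that rule 15.2% of all genes were lower, and 26.3% of all genes below 45% GC, where Hmmr and Nusap1 lie. Hmmr, a microtubule-binding protein of spindle poles, was lowest with 4108 counts (128 CPM) in Ctrl and 2805 (74.6 CPM) in DAC, a ratio of 0.582 (0.554 to 0.611), and it was not called after GC centring (0.702). Tpx2, which activates Aurora A and nucleates microtubules around chromosomes, had the most CPM per kilobase, 65.9 in Ctrl and 39.3 in DAC, and 9865 and 6902 counts. Its ratio was 0.596 (0.578 to 0.615), and it was not called by library totals (0.681). Nusap1, which bundles microtubules near chromosomes, had the highest ratio of the class, 0.702 (0.664 to 0.744), with 2657 and 2190 counts.

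Of the 4 cytokinesis genes all had a ratio below 1, and 1 was called by the 1.5-fold rule, with a median log2 ratio of -0.40 (-0.25 after GC centring and -0.20 by library totals). Of all genes 51.3% had a ratio below 1 and 15.2% were lower by the 1.5-fold rule. Prc1, which cross-links the overlapping microtubules of the midzone, was lowest with 5548 counts (173 CPM) in Ctrl and 3415 (90.9 CPM) in DAC, a ratio of 0.525 (0.502 to 0.547). Its exons overlap those of Rccd1 on the opposite strand over 911 bases, and the sources used here do not say whether the counting used strand. Anln, which ties actin and septins to the cleavage furrow, had the most CPM per kilobase in the control, 58.3 against 39.8 in the DAC library, and 16926 and 13560 counts and a ratio of 0.683 (0.667 to 0.698). Racgap1, the partner of Kif23 in centralspindlin, had 10826 and 10762 counts and a ratio of 0.847 (0.825 to 0.870), and in the DAC library it led the class at 40.5 CPM per kilobase. Ect2, the exchange factor that switches on RhoA at the equator, was highest at 0.940 (0.899 to 0.983), but above 1 by library totals (1.07) and after GC centring (1.15). The 2 subunits of centralspindlin lay close together, with the ratio of Kif23 1.15 times that of Racgap1.

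The 5 genes of mitotic entry and exit covered the widest range of ratios of any class, from 0.785 to 2.21. Their median log2 ratio was -0.02 (0.17 by library totals and -0.15 after GC centring). By the 2-fold rule, and likewise by the 1.5-fold rule, 1 was higher and none lower. Of all genes 10.8% were higher and 5.29% lower at 2-fold, and 19.3% and 15.2% at 1.5-fold. Cdc25c, a phosphatase that activates Cdk1, was lowest with 1414 and 1303 counts and a ratio of 0.785 (0.728 to 0.847), and 22.2% of its 50-base stretches are shared, mainly with Gm3550. Its paralog Cdc25b had 4745 and 4949 counts and a ratio of 0.889 (0.854 to 0.925). Ube2c, the ubiquitin-conjugating enzyme that works with the anaphase-promoting complex, led the control library in level at 65.7 CPM per kilobase and had 64.6 in the DAC library, a ratio of 0.983 (0.948 to 1.02), with 17.8% of its stretches shared. By library totals both Cdc25b (1.02) and Ube2c (1.12) lay above 1. Cdc20, the activator of the anaphase-promoting complex and the target of the checkpoint, had 3547 counts (111 CPM) in Ctrl and 5959 (159 CPM) in DAC. The ratio of Cdc20 was 1.43 (1.37 to 1.49), it passed the 1.5-fold rule by library totals, and 11.6% of its stretches are shared, mainly with Gm7856. Cdca3 was highest, as given above.

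Of the cohesion and separase genes, Cdca5 was higher by the 2-fold rule and the other 2 differed less. Pttg1 (securin), which holds separase inactive until anaphase, was lowest and had the most CPM per kilobase, 26.6 in Ctrl and 23.9 in DAC, with 1704 and 1798 counts and a ratio of 0.899 (0.841 to 0.961). Espl1 (separase), the protease that cuts cohesin, had 3477 and 4571 counts and a ratio of 1.12 (1.07 to 1.17). The directions of both depended on the scale, since Pttg1 was at 1.03 by library totals and Espl1 at 0.985 after GC centring. Cdca5 had a ratio of 2.40 by library totals and 2.01 after GC centring, and its value centred on bins of exon length, 1.996, fell just short of 2-fold.

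In chromosome structure, 6 of 7 genes had a ratio below 1 and 3 were lower by the 1.5-fold rule, beside 15.2% of all genes, with a median log2 ratio of -0.39, but -0.11 after GC centring and -0.20 by library totals, where none of the 7 was called. Ncapg, a regulatory subunit of condensin I, was lowest with 5825 counts (182 CPM) in Ctrl and 4251 (113 CPM) in DAC, a ratio of 0.622 (0.598 to 0.647). After GC centring it was at 0.801, and its exons overlap Lcorl on the opposite strand over 944 bases. Smc4, a condensin ATPase, had 10676 and 7929 counts and a ratio of 0.633 (0.615 to 0.652), and the most CPM per kilobase in the control, 64.0 against 40.5 in the DAC library. Its partner Smc2 was at 0.830 (0.796 to 0.866), Ncaph, the subunit that closes the condensin ring, at 0.976 (0.919 to 1.04), and Ncapd2, the highest, at 1.04 (0.997 to 1.08). The highest of the 5 condensin I ratios was 1.66 times the lowest, and the intervals of Ncaph and Ncapd2 held 1. The direction depended on the scale for Smc2 (1.02 after GC centring), Ncaph (1.05 after GC centring and 1.11 by library totals) and Ncapd2 (0.940 after GC centring).

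Mki67, which encodes the proliferation antigen Ki-67 that coats mitotic chromosomes, had the most counts of any member, 19494 (609 CPM) in Ctrl and 14498 (386 CPM) in DAC. Its ratio was 0.634 (0.620 to 0.648), with 0.724 by library totals and 0.697 after GC centring. Top2a, the topoisomerase that untangles sister chromatids, had 17698 and 15883 counts and a ratio of 0.765 (0.749 to 0.781), and the most CPM per kilobase of the class in the DAC library, 46.9 against 61.3 in the control. Mki67 was thus lower by the 1.5-fold rule on the main scale and not on these other scales.

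Per kilobase of merged exons, the members spanned a wide range of levels, and their order was similar in both libraries (Spearman's rho = 0.88 across the 51 genes, which are not independent replicates and share the library scale). In the control library the highest levels were 74.4 CPM per kilobase for Anp32e, 65.9 for Tpx2 and 65.7 for Ube2c, and the lowest were 4.92 for Knl1 and 4.95 for Kif18a. In the DAC library Cdc20 was highest at 84.9, followed by Ube2c at 64.6 and Kif20a at 51.8, while Anp32e stood at 33.2. Together the members took 0.690% of all counts in Ctrl and 0.617% in the DAC library. Their summed CPM went from 7378 to 5773, a ratio of 0.783 (0.778 to 0.787). That of all genes tested was 0.875 on the same scale, a value set almost wholly by the TMM factors and not a measure of expression.

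The ratio of the members went with GC content and with control CPM, as it did among all genes. Over the 51 members, Spearman's rho between the log2 ratio and the GC content of the longest transcript was 0.45 (Pearson's r = 0.47), and over 13518 genes it was 0.33. All these values come from the same 2 libraries and are given as a description. Of the 23 members below 45% GC, 20 had a ratio below 1, 10 were lower by the 1.5-fold rule (43.5%) and the median log2 ratio was -0.51. Of all 3561 genes below 45% GC, 70.3% had a ratio below 1, 26.3% were lower by that rule and the median was -0.27. Of the 28 members at or above 45% GC, 2 were lower (7.14%), 2 were higher (7.14%) and the median was -0.09, beside 11.2% lower, 22.5% higher and 0.07 for all 9957 such genes. Spearman's rho with control CPM, which is itself part of the ratio, was -0.50 for members and -0.40 for all genes. The part of GC content in the members' ratios was not tested beyond these values.

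**Figure D5:**
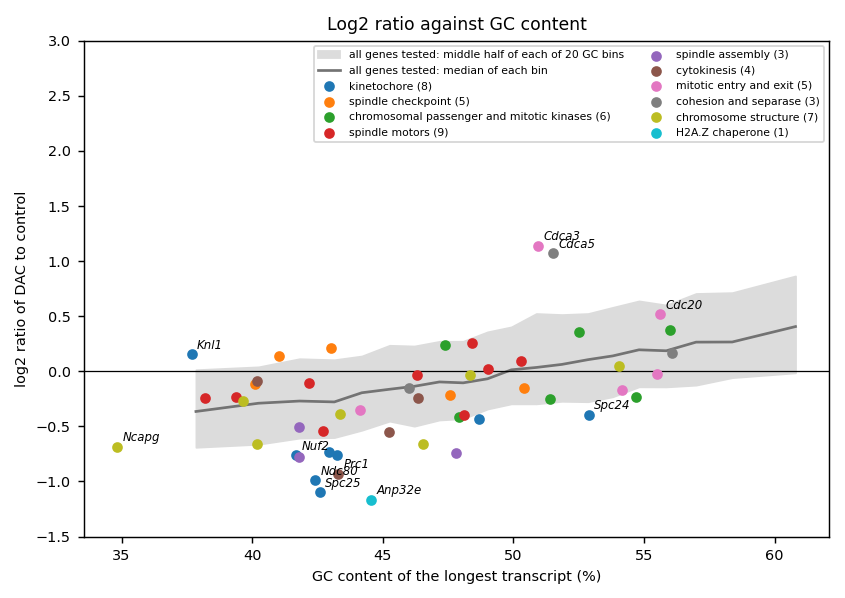
Log2 ratio, DAC over control (vertical axis), against GC content of the longest transcript (x axis, percent) for the 51 mitosis and spindle genes, coloured by structure, over the median (grey line) and the middle 50% (grey band) of all genes tested in 20 GC bins. Between 41.7 and 44.6% GC, Spc25, Ndc80, Nuf2, Hmmr, Cenpf, Cenpe, Prc1 and Anp32e are among those below the band, while Cdca3 and Cdca5, at 50.96 and 51.5% GC, lie farthest above it and Bub1, Knl1 and Ttk lie above it as well.

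Counts of some members may hold reads of other genes. More than 10% of the 50-base stretches are shared in 6 members (Kif20a, Cdc25c, Ube2c, Kif4, Cdc20 and Plk1), and the exons of 15 members overlap another gene that has counts. The median log2 ratio was -0.24 without the first set and -0.24 without the second. Of the genes called by the 2-fold rule, Anp32e, Spc25, Cdca3 and Cdca5 shared 0% of their stretches and overlapped no counted gene. The members lie on 14 chromosomes, with 11 of them on chromosome 2.

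Other genes of the same processes, taken from lists chosen by function, gave few calls. Of 117 other mitosis genes, all past the CPM minimum, 1 was lower by the 2-fold rule (0.855%, against 5.29% of all genes). None was higher by it (10.8% of all genes). By the 1.5-fold rule 7 were higher (5.98%, against 19.3%) and 11 lower (9.40%, against 15.2%). Their median log2 ratio was -0.13, beside -0.24 for the 51 members. By library totals the median of the 117 was 0.06, with 15 higher and 4 lower at 1.5-fold, beside 26.4% and 8.8% of all genes. After GC centring their median was -0.06. The gene called by the 2-fold rule was Zwilch, a subunit of the RZZ complex that recruits dynein to kinetochores, with 2739 counts in Ctrl and 1602 in DAC, 0.498 (0.468 to 0.530). It lay just inside the limit and passed it in 4 of 10 alternatives. These were thinning and the settings that leave its ratio as it is (other CPM minimums and intervals from counts divided by 3). The other 6 (library totals, DESeq2 size factors, upper-quartile factors and the 3 centrings) gave 0.503 to 0.605.

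The 36 other kinetochore and centromere genes had a median log2 ratio of 0.10, with 3 past the 1.5-fold rule upward and 5 downward, beside 19.3% and 15.2% of all genes. Library totals gave 8 and 3 (26.4% and 8.8% of all genes), and GC centring gave 6 and 3 (18.2% and 12.9%). The 36 reached from Zwilch to Cenpp, a subunit of the inner kinetochore (99 and 211 counts, 1.82, 1.42 to 2.33). The 8 kinetochore members thus had a lower median, -0.75, than these 36, and after GC centring the medians were -0.49 and 0.13. The median control CPM was 105 for the 8 and 34.1 for the 36, and the part of this difference was not tested. The 37 other spindle and cytokinesis genes had a median of -0.10, but 0.09 by library totals. By the 1.5-fold rule 2 were higher and none lower, beside 19.3% and 15.2% of all genes. GC centring gave 3 higher and 4 lower (18.2% and 12.9%), and centring on exon length gave 3 higher and 2 lower. The 37 reached from the centrosomal kinase gene Nek2 (4610 and 3627 counts, 0.6705, 0.642 to 0.7005) to Tacc1 (453 and 852 counts, 1.603, 1.43 to 1.8003). The 30 genes of mitotic kinases, cyclins and the anaphase-promoting complex had a median of -0.11 (0.08 by library totals). By the 1.5-fold rule 2 were higher and 3 lower, beside 19.3% and 15.2% of all genes. Library totals gave 4 and 1 (26.4% and 8.8%), and GC centring gave 2 and 1 (18.2% and 12.9%). The 30 reached from Arpp19, an inhibitor of the phosphatase PP2A (2482 and 1683 counts, 0.578, 0.543 to 0.615), to Anapc11, the RING subunit of the anaphase-promoting complex (1309 and 2806 counts, 1.83, 1.71 to 1.95). Cdk1 and Ccnb1, the kinase and cyclin that drive entry into mitosis, were named after their values were seen and had ratios of 0.904 (0.865 to 0.946) and 0.888 (0.851 to 0.928), and 42.1% of the 50-base stretches of Ccnb1 are shared, mainly with Gm12856.

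The 14 other cohesin and condensin genes had a median of -0.42 (-0.13 after GC centring and -0.23 by library totals). By the 1.5-fold rule 3 were lower and none higher, beside 15.2% and 19.3% of all genes. By library totals none was lower (8.8% of all genes), and after GC centring 2 were (12.9%). Nipbl, which loads cohesin, was lowest with 8303 and 5796 counts, 0.595 (0.575 to 0.615), and Stag1 highest with 2050 and 2774 counts, 1.15 (1.09 to 1.22). Nipbl and Stag1 thus lay at 0.595 and 1.15, while Cdca5, the cohesin protector among the members, lay at 2.10.

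Transcription regulators of these genes gave no common direction. Of 20 genes (DREAM and MuvB subunits, E2F factors, Rb proteins, Foxm1 and Mybl2) 3 passed the 1.5-fold rule upward and 2 downward, beside 19.3% and 15.2% of all genes. None passed the 2-fold rule, beside 10.8% of all genes upward and 5.29% downward. The median log2 ratio of the 20 was -0.03 (0.16 by library totals and 0.05 after GC centring). Rb1, which restrains E2F factors, was lowest with 1319 counts in Ctrl and 863 in DAC, 0.558 (0.511 to 0.608), and E2f8, a repressor of E2F targets, was highest with 1938 and 3918 counts, 1.72 (1.63 to 1.82). Foxm1 and Mybl2, which activate G2 and M phase genes, were named after their values were seen and had ratios of 1.23 (1.19 to 1.27) and 1.604 (1.51 to 1.70). Of the 50-base stretches 10.5% are shared in E2f8, mainly with Gm2788, and 23.8% in Mybl2, mainly with Gm3320. Of 47 DNA replication genes, 1 was lower and none higher by the 2-fold rule, beside 5.29% and 10.8% of all genes. By the 1.5-fold rule 4 were higher and 7 lower, beside 19.3% and 15.2% of all genes. The median of the 47 was -0.15. By library totals that median was 0.04 with 3 lower (8.8% of all genes), and after GC centring -0.09 with 2 lower (12.9%). They reached from Fen1, the flap endonuclease (1791 and 766 counts, 0.364, 0.334 to 0.397), of which 81.2% of the 50-base stretches are shared mainly with Gm10143, to Uhrf1, which guides Dnmt1 to replicated DNA (3979 and 7797 counts, 1.67, 1.61 to 1.73), with 18.9% of its stretches shared, mainly with Gm5648.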

How the data were processed

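RNA-seq was analysed for 1 library of DAC-treated and 1 library of control CT26 cells. The authors deposited whole-number counts per Ensembl gene without normalization. The submitters' processing notes list the aligner STAR 2.5.3a with mm10, the read trimmers and checks Trim Galore and FastQC, and StringTie 1.3.1c, Cufflinks and DESeq, whereas the paper's methods describe poly-T purification, a TruSeq kit, FPKM values from CASAVA, and TopHat and Bowtie for reads across splice or fusion junctions. The sources used here do not say which route gave the counts or whether strand was used. Symbols and coordinates came from GENCODE mouse M21 (GRCm38, the assembly of mm10), with 24122 of 24223 identifiers matched. Promoters came from RefSeq (GRCm38.p6).

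TMM factors from edgeR 4.0.16 (1.07 for DAC and 0.936 for control), CPM, ratios and exact 95% binomial intervals came from Python 3.11.15 (pandas 2.3.3, scipy 1.17.1, numpy 2.4.6). A count of 0 was set to 3 in ratios. The intervals are too narrow if counts are not independent molecules, and nothing in the labels says whether the libraries came from separate cultures. GC content is that of the longest transcript, since no genome sequence was used, in place of merged exons as planned. Levels are CPM per kilobase of merged exons. The share of 50-base stretches found in other genes was counted in GENCODE transcripts.

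The members, lists, call rules and tests were chosen with earlier results of these data known. Described in full were members called at 2-fold and, in each class, the members with the highest ratio, the lowest ratio and the most CPM per kilobase, and from other lists the genes called at 2-fold and the extremes. Promoters were printed for the members with the lowest and the highest ratio among those with a CHR match and for the members called at 2-fold. The steps were tested on simulated data. The alternatives replaced TMM by size factors of DESeq2 1.42.0, by upper-quartile factors or by library totals, or used centring on all genes, GC content or exon length, other CPM minimums, intervals from counts divided by 3, thinning of the deeper library, a fold of 4, a minimum difference and leaving out members with shared or overlapping sequence.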

Additional observations from a re-analysis of the deposited data

How the results depend on the processing

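The counts of called members depended on the scale. The 2 members lower by the 2-fold rule became 0 by library totals, 0 after centring on 20 bins of GC content and 0 with a fold of 4, and the 2 higher members became 1 after centring on bins of exon length and 0 with a fold of 4. The 12 members lower by the 1.5-fold rule became 5 by library totals and 5 after GC centring. Over all genes that share went from 15.2% to 8.8% and 12.9%. The 11 members with an interval above 1 became 20 by library totals, while the share of all genes rose from 37.3% to 51.1%. The median log2 ratio of the members was -0.046 by library totals and -0.12 after GC centring, against -0.24 on the main scale. The other alternatives kept each of these counts within 1.5 times and the median between -0.24 and -0.21. The level order by the longest transcript, an alternative chosen after seeing the data, named the same leading member in 8 of 10 classes of the control library. No paired analysis was possible because each group has 1 library, and for the same reason no library could be left out. Depth was no limit for the members, which had at least 353 counts, but differences between cultures were not measured.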

Other observations

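The tubulins, the subunits of the microtubules on which the spindle genes act, were also counted. Of 13 tubulin genes 12 passed the CPM minimum, 3 of these were higher by the 2-fold rule (against 10.8% of all genes) and none was lower (5.29% of all genes), and the median log2 ratio was 0.39 (0.58 by library totals and 0.12 after GC centring). The 3 were genes of low count in the control library. Tubb2b, a neuronal beta-tubulin, had 0 counts in Ctrl and 186 in DAC, a ratio of 52.8 with the 0 counts set to 3. Of its 50-base stretches 39.3% occur in other genes, mainly Tubb2a. Tuba4a had 182 and 738 counts and a ratio of 3.46 (2.93 to 4.09), with 48.8% of its stretches shared, mainly with Stk16. Tubb3, a marker of neurons, had 115 and 311 counts and a ratio of 2.305 (1.8551 to 2.88), and 1.92 after GC centring. The abundant Tubb5 had 27969 counts in Ctrl and 47577 in DAC, a ratio of 1.45 (1.43 to 1.47), and Tuba1b had 37749 and 46361 counts and a ratio of 1.05 (1.03 to 1.06), with 83.1% of its stretches shared. Tubb4b was lowest at 0.753 (0.736 to 0.771). Tubb5 and Tuba1b were named after their values were seen.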
